A study of Mus musculus with 6 samples.

Results

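The mitosis genes described here are 40 genes whose products carry a cell into, through and out of division of its chromosomes. They were taken from a list of names, with no measured value in the rule. Earlier results of these data were known when the names were chosen. Of the 40 genes, 39 had a probe set (a group of short probes for 1 transcript) annotated to that gene alone, and all 39 were bright enough to be tested. Ccnb1, the gene of cyclin B1, was not analysed here. The 39 genes belong to 14222 genes tested, of 18193 genes with such a probe set.

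RNA came from bladder epithelial cells of mice at postnatal day 7, of the strain FVB/N x C57BL/6, labelled male. DsRed-positive and DsRed-negative cells gave 3 arrays each, numbered 1, 2 and 5 in both groups, and the comparison asked how cells with the red fluorescent reporter differed from cells without it. The reported gene of both groups is given as B6;129P-Upk1btm1Zhang/J, an allele of Upk1b, which encodes a uroplakin of the urothelial surface, and no treatment is named. How the fluorescent protein was placed in the animals, which cells it marks and how the fractions were separated are not stated. According to the labels no sample was pooled, but whether each came from its own animal is not given. The p-values measure only the spread among these 6 samples, which may be technical, and the number of arrays limits the precision.

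Both groups are labelled bladder epithelial cell, and the marker genes differed widely between them. The summed signal of 15 urothelial genes was 488410 to 760549 on the DsRed-positive arrays and 32994 to 73125 on the DsRed-negative arrays. The summed signal of 14 fibroblast and matrix genes was 19169 to 36342 on the DsRed-positive arrays and 1182517 to 2405817 on the DsRed-negative arrays, and Thy1 was at or below the level of unspiked control probe sets on all 3 DsRed-positive arrays. Smooth muscle (9 genes summed), endothelium (9 genes) and leukocytes (10 genes) also had their higher sums on the DsRed-negative arrays, with 122539 to 220209 against 2354 to 3480, 12676 to 16817 against 1745 to 2806, and 36286 to 49811 against 3021 to 6154. The part of this difference in cell markers in the values of the mitosis genes was not tested. In such bulk RNA, fewer cells of a type and less RNA per cell cannot be told apart.

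The arrays also differed in other ways. Both arrays numbered 1 went against the label male: the signal of Xist, the RNA of the silenced X chromosome, was 45699 and 28183 on them and 203 to 546 on the other 4 arrays, and that of the Y-linked Eif2s3y was 4 and 31 against 3309 to 8043. Results are therefore also given without these 2 arrays. The ratio of 3′ to 5′ signal of Actb, a measure of RNA integrity and amplification, was 4.28 to 5.57 on the DsRed-positive and 6.85 to 9.49 on the DsRed-negative arrays (exact permutation test, two-sided, p = 0.1, the smallest that 3 arrays against 3 allow). That of Gapdh ran the other way, with a mean of 14.6 against 11.5 (exact permutation p = 0.2), and was highest on DsRed-positive array 5, at 16.4. The mean log2 signal of the hybridization spikes was 13.7 on the DsRed-positive and 15.4 on the DsRed-negative arrays (exact permutation p = 0.1). The part of these measures in the results was not tested. Pairs of arrays within a group correlated at 0.8454 to 0.9402 over the tested probe sets, and no 2 arrays held identical values.

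Mitosis begins when cyclins A and B bind the kinase Cdk1 and chromosomes condense. The spindle then takes hold of each chromosome at its kinetochore, and the spindle checkpoint keeps the anaphase-promoting complex in check until all are attached; that complex then marks securin and cyclin B for destruction, chromatids part, and the cell is cleaved at the midzone. Most of these genes are transcribed late in the cell cycle, so their RNA is high in dividing cells and low in resting ones. The urothelium renews slowly in the adult animal and still grows after birth.

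Of the 39 mitosis genes, 2 were higher in DsRed-positive cells and none was lower. Over all tested genes 20.5% were called in either direction and 9.21% were called higher, against 5.13% of the mitosis genes, so calls were not more frequent among the mitosis genes than in the background. The 2 genes were Ube2c, the E2 enzyme that works with the anaphase-promoting complex, and Kif20a, a kinesin of the midzone. A gene was called where limma, fitted to quantile-normalized log2 signals of all 30175 tested probe sets, gave a Benjamini-Hochberg adjusted p under 0.05. At an unadjusted p under 0.05, 9 mitosis genes passed (23.1%), against 5000 of all 14222 genes (35.2%).

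The estimates themselves lay mostly on one side of 0. For 35 of 39 genes the DsRed-positive mean was above the DsRed-negative mean, and the median log2 difference was 0.84, with a range from -0.60 to 2.55, beside a median of 0.04 over all tested genes. Foxm1, Plk4, Cdc20 and Incenp were the genes below 0, none of them past the test. The probe sets used for Cdc20, Incenp and Plk4 are of kinds that may also bind other transcripts. For 11 genes every DsRed-positive array lay above every DsRed-negative array (28.2%, against 22% of all genes). Foxm1 alone had all DsRed-positive arrays below all DsRed-negative arrays (21.4% of all genes do).

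The mitosis genes varied more within the groups than most genes did. The median SD within a group was 1.02 on the log2 scale, against 0.51 over all tested genes and 0.50 over the 10495 genes within the range of mean signal of the mitosis genes (8.13 to 13.85). The median standard error of the difference was 0.67, against 0.42 over all tested genes. A gene that missed the threshold was thus not shown to be equal in both groups: for Mki67 the 95% interval of the difference ran from -0.77 to 2.45.

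**Figure D1:**
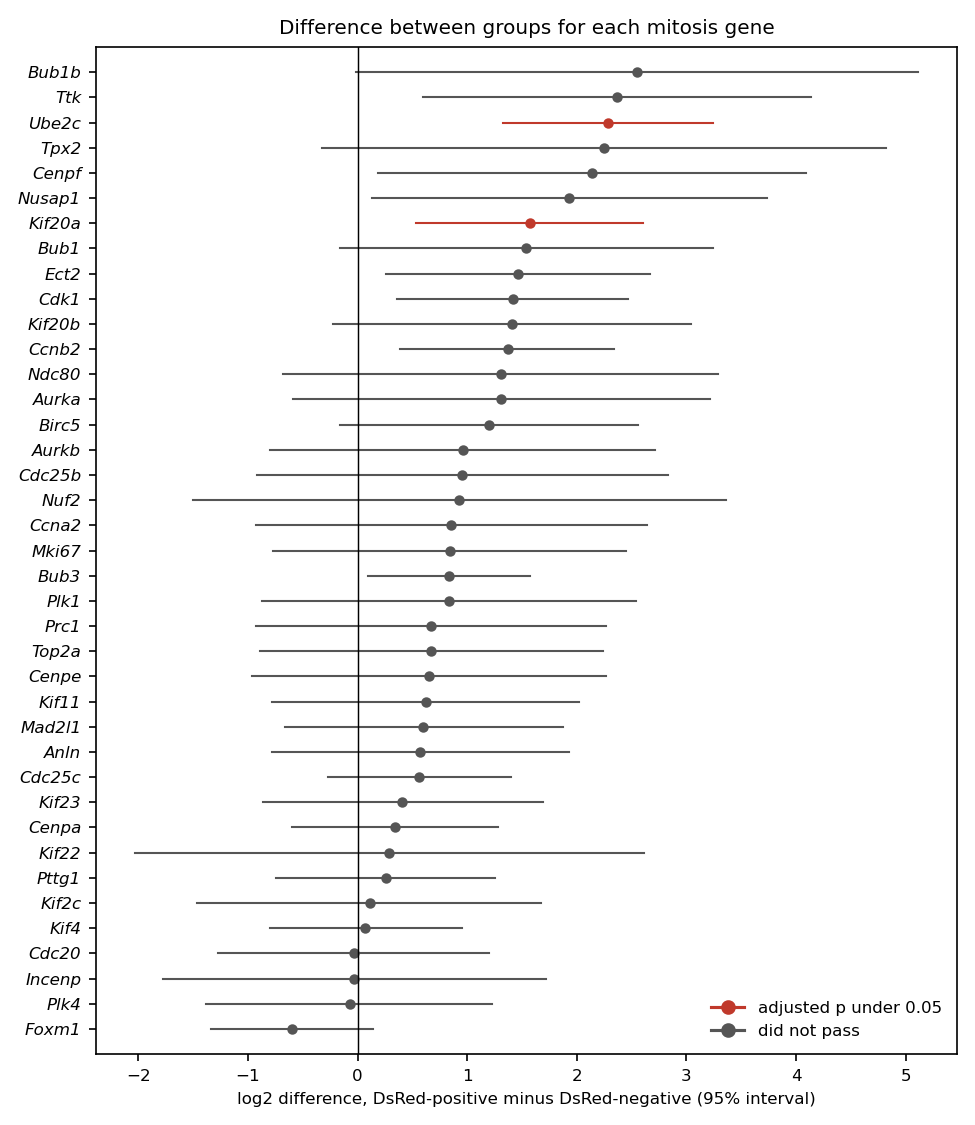
Difference between DsRed-positive and DsRed-negative cells for each of the 39 mitosis genes, ordered by size. The horizontal axis is the log2 difference; points are the limma estimates from 3 arrays in each group and lines their 95% intervals, and Ube2c and Kif20a, in red, had an adjusted p under 0.05.

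Without both arrays numbered 1, none of the 39 genes passed limma's test, beside 8.74% of all tested genes. In that fit 38 of the 39 had a DsRed-positive mean above the DsRed-negative mean, and the median log2 difference was 1.11. Ube2c then had a log2 difference of 2.53 (adjusted p = 0.0703) and Kif20a of 1.56 (adjusted p = 0.202). With each array centred on its median in place of quantile normalization, 9 of 39 genes were called higher, beside 2568 of all 14237 genes tested. The median over all genes moved from 0.04 to 0.37. On the values as deposited that median was -0.17 and 1 mitosis gene, Ube2c, was called higher, beside 1233 of all 14237 genes.

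Ube2c had the smallest p of the mitosis genes. Its deposited signal, which the authors scaled to a common mean on each array, was 549, 408 and 396 on DsRed-negative arrays 1, 2 and 5 and 1962, 1269 and 3121 on DsRed-positive arrays 1, 2 and 5. All DsRed-positive arrays were above all DsRed-negative arrays, and array 5 was the highest. The normalized log2 signal was 10.98 ± 0.58 (SD, n = 3) against 8.70 ± 0.35, a 4.87-fold difference (95% interval 2.51 to 9.46, limma adjusted p = 0.00852). Ube2c stayed past the threshold when any 1 of the 6 arrays was left out (adjusted p 0.0148 to 0.04).

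Kif20a carries passenger proteins to the midzone before the cell is cleaved. Its deposited signal was 380, 534 and 678 on DsRed-negative arrays 1, 2 and 5 and 1054, 933 and 2464 on the DsRed-positive arrays of the same numbers. The groups did not overlap. The normalized log2 signal was 10.48 ± 0.68 (SD, n = 3) against 8.92 ± 0.40, a 2.96-fold difference (95% interval 1.45 to 6.08) with a limma adjusted p of 0.0497, at the edge of the threshold. The call was lost when any 1 array was left out (adjusted p 0.0574 to 0.139).

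To show the control regions of mitosis genes that differed in these data, the 100 bases just before the annotated start are printed for Ube2c, which was called, Cdk1, which came close (adjusted p = 0.073), and Cdc20 and Plk4, whose estimates were near 0. Sequences are from RefSeq on the build GRCm38.p6, 5′ to 3′ along the gene's strand. Capitals mark TTTGAA, the core of the cell cycle homology region that the MuvB complexes bind, and CCAAT, the box bound by NF-Y, on either strand, so that TTCAAA and ATTGG are the same motifs read from the other side. The windows lie at chr2:164769829-164769928 (plus strand, Ube2c), chr10:69352913-69353012 (minus strand, Cdk1), chr4:118437344-118437443 (minus strand, Cdc20) and chr3:40799851-40799950 (plus strand, Plk4).
Ube2c: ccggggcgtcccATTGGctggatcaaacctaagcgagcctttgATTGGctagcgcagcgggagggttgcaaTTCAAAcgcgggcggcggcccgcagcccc
Cdk1: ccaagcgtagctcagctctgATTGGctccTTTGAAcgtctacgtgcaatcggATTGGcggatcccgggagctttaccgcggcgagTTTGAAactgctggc
Cdc20: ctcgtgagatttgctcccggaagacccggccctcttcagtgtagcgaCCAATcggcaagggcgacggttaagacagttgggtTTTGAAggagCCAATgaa
Plk4: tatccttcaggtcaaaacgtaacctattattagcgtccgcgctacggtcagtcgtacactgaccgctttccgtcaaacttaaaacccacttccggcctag

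Ube2c held TTTGAA at 29 bases and CCAAT at 88 and 57 bases before the start, counted from the start to the base of the motif farthest from it. Cdk1 held TTTGAA at 71 and 15 bases and CCAAT at 80 and 48 bases, and Cdc20 held TTTGAA at 18 bases and CCAAT at 53 and 8 bases. The Plk4 stretch held neither. Of the 39 genes, 32 had a RefSeq window from 250 bases before to 50 bases after the start. TTTGAA lay in 23 of these 32 windows (71.9%), against 20.2% of 27025 genes, CCAAT in 22 (68.8%, against 41.1%) and both in 19 (59.4%, against 7.97%).

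Genes with and without the motif covered overlapping ranges of difference. The median log2 difference was 0.83 for the 23 genes with TTTGAA in the window (range -0.03 to 2.55) and 0.93 for the 9 genes without it (range -0.07 to 1.93). Cdc20, with both motifs, had a log2 difference of -0.03. A match is a description of these letters and not a site of binding.

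DsRed-positive array 5 was the highest of the DsRed-positive arrays for 39 of 39 mitosis genes, against 35.4% of all tested genes. It was the highest of all 6 arrays for 37 of them, and the other 2, Plk4 and Foxm1, were highest on DsRed-negative array 2. The same counts, 39 and 37, were found under both other scalings, without normalization and with median centring. The summed deposited signal of the 39 genes was 102140, 68203 and 131856 on DsRed-negative arrays 1, 2 and 5 and 108346, 99063 and 297231 on DsRed-positive arrays 1, 2 and 5. DsRed-positive arrays 1 and 2 thus lay within the range of the DsRed-negative arrays on this sum, in which bright genes weigh most, and DsRed-positive array 5 lay above it. The median log2 signal of the 39 genes, in which each gene counts alike, was 10.05, 9.61 and 10.16 on the DsRed-negative and 10.36, 10.35 and 11.89 on the DsRed-positive arrays, so that on this measure all 3 DsRed-positive arrays lay above the DsRed-negative ones.

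The size of the gap differed between genes. The log2 signal on DsRed-positive array 5 minus the mean of DsRed-positive arrays 1 and 2 had a median of 1.59, from 0.24 for Foxm1 to 3.34 for Kif22, a kinesin that moves chromosome arms. It was 2.56 for Plk1, 2.45 for Nuf2, 2.42 for Mki67 and 2.29 for Top2a. Between DsRed-positive arrays 1 and 2 the mitosis genes differed by a median of 0.31 in log2 signal, beside 0.39 over all tested genes.

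DsRed-positive array 5 exceeded both other DsRed-positive arrays by more than 1 on the log2 scale, a gap chosen after the data were seen, for 25 of 39 mitosis genes (64.1%) and for 428 of all 14222 tested genes (3.01%). No mitosis gene was so raised on DsRed-positive array 1 or 2. On array 5 such a gap was found for none of the 15 urothelial marker genes and for 1 of the 14 fibroblast genes. Smaller rises were common among the fibroblast genes. Array 5 was the highest DsRed-positive array for 10 of these 14 (71.4%) and for 4 of the 15 urothelial genes, against 35.4% of all tested genes. Its log2 signal minus the mean of DsRed-positive arrays 1 and 2 had a median of 0.81 and -0.01 in these lists, beside 0.03 over all tested genes. Between the DsRed-positive arrays, the summed urothelial and fibroblast signals differed by less than 2-fold, and array 5 had the largest fibroblast sum (36342, against 19401 and 19169). The part of these or of any handling difference in the height of array 5 was not tested.

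Without DsRed-positive array 5, the median log2 difference of the mitosis genes fell from 0.84 to 0.22, 30 of 39 genes lay above 0, and Ube2c alone was called higher. That fit called 749 of all 14222 tested genes higher. In Top2a, Plk1, Kif4, Kif2c and Kif22 the estimate then lay below 0.

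On the DsRed-negative side, array 5 was the highest of its group for 24 of 39 mitosis genes, against 34.1% of all tested genes. It was also the highest for 38 of 56 S phase genes. Its log2 signal minus that of DsRed-negative array 1 had a median of 0.31 over the mitosis genes, beside 0 over all tested genes. DsRed-negative array 2 was the lowest of its group for 26 of 39 mitosis genes, against 37.2% of all tested genes. It lay more than 1 log2 unit below both other DsRed-negative arrays for 12 genes (30.8%, against 11.2%). Ttk, Bub1b, Tpx2, Nuf2, Aurka, Cdc25b, Bub1, Plk1 and Ndc80 were below the control level on it (7.69), the 95th percentile of the unspiked control probe sets. Their differences from DsRed-positive cells therefore depend on signals near background on that array. Plk1 was also below the control level on DsRed-negative array 5 and DsRed-positive array 1. So were Ndc80 on DsRed-negative array 1 and Nuf2 on DsRed-positive array 2.

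**Figure D2:**
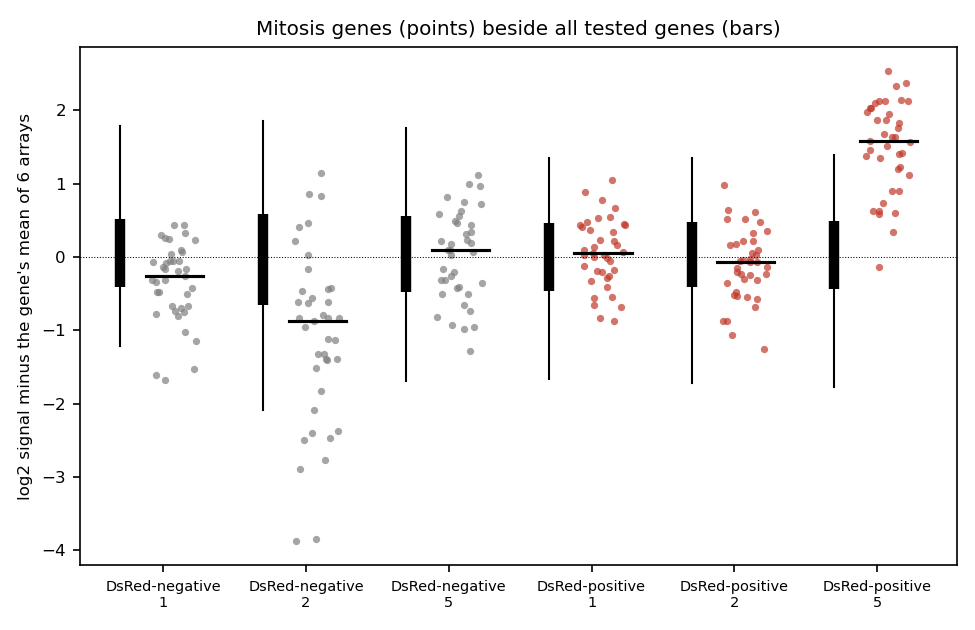
Mitosis genes on each array relative to their own mean. The vertical axis is the log2 signal minus the gene's mean over 6 arrays; each point is 1 of 39 genes, the horizontal line their median, the thick bar the middle 50% and the thin bar the middle 90% of all 14222 tested genes, and the points of DsRed-positive array 5 have a median of 1.58 while those of DsRed-negative array 2 have a median of -0.87.

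Mki67 and Top2a, used as marks of dividing cells, showed the height of array 5 plainly. Mki67 encodes the protein that coats mitotic chromosomes, and its log2 signal was 12.24, 11.97 and 12.27 on DsRed-negative arrays 1, 2 and 5 and 12.68, 11.71 and 14.61 on DsRed-positive arrays 1, 2 and 5. Top2a, the topoisomerase that untangles DNA before chromatids part, had log2 signals of 12.75, 11.93 and 12.97 on the DsRed-negative and 12.55, 12.36 and 14.75 on the DsRed-positive arrays. In both genes the groups overlapped and only DsRed-positive array 5 stood above the DsRed-negative arrays by more than 1. The log2 differences were 0.84 ± 0.69 (SE, limma adjusted p = 0.45) for Mki67 and 0.67 ± 0.67 (adjusted p = 0.538) for Top2a.

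Among 8 genes of entry into mitosis, none was called and 7 had estimates above 0 (median 0.90). Cdk1, the kinase that drives entry, had log2 signals of 10.49, 10.44 and 10.76 on DsRed-negative arrays 1, 2 and 5 and 11.30, 11.79 and 12.85 on the DsRed-positive arrays. Ccnb2, the gene of cyclin B2 and a partner of Cdk1, had 10.51, 10.75 and 10.22 against 11.33, 11.65 and 12.59. Neither gene's groups overlapped, and the DsRed-negative arrays were close together. The differences were 1.42 ± 0.45 (SE, log2 scale, limma adjusted p = 0.073) for Cdk1 and 1.37 ± 0.42 (adjusted p = 0.0641) for Ccnb2.

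The others of this role were Ccna2 (cyclin A2), the phosphatases Cdc25b and Cdc25c that release Cdk1, the kinases Aurka and Plk1, and Foxm1, a transcription factor of late cell cycle genes. Their log2 differences ran from -0.60 in Foxm1 to 1.31 in Aurka. Foxm1 had log2 signals of 10.09, 10.29 and 10.02 on the DsRed-negative and 9.28, 9.63 and 9.70 on the DsRed-positive arrays, with a difference of -0.60 ± 0.32 (SE, limma adjusted p = 0.242). It was the only one of the 39 genes with every DsRed-positive array below every DsRed-negative array, and its 2 tested probe sets had estimates of opposite sign.

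The 5 genes of the spindle checkpoint all had estimates above 0 (median log2 difference 1.54), and none was called. Bub1b, which encodes the checkpoint protein BubR1, had the largest estimate of all 39 genes. Its log2 signal was 10.27, 5.98 and 9.42 on DsRed-negative arrays 1, 2 and 5 and 10.60, 10.35 and 12.37 on the DsRed-positive arrays. The groups did not overlap, yet DsRed-negative array 1 lay just under the lowest DsRed-positive array, and DsRed-negative array 2 was below the control level. The log2 difference was 2.55 ± 1.10 (SE, limma adjusted p = 0.16). The other tested probe sets of Bub1b had log2 differences of 2.80 and -0.50, neither of them called.

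Ttk, the kinase Mps1 that starts the checkpoint signal, had log2 signals of 8.03, 5.62 and 8.34 on the DsRed-negative and 9.40, 9.15 and 10.54 on the DsRed-positive arrays. These groups did not overlap either, and the difference was 2.37 ± 0.76 (SE, adjusted p = 0.0736 by limma). Bub3, which holds Bub1 and BubR1 at kinetochores, varied the least, with 13.37, 13.39 and 13.55 against 14.32, 14.01 and 14.48. Its groups were apart at a log2 difference of 0.83 ± 0.32 (limma adjusted p = 0.117). Bub1, a kinase of the kinetochore, and Mad2l1, the Mad2 protein that holds Cdc20 inactive, had log2 differences of 1.54 and 0.60.

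Of the 3 genes that act with the anaphase-promoting complex, Ube2c was called and the other 2 were not. Pttg1 encodes securin, an inhibitor that helps to keep sister chromatids from parting until the complex marks it. Its log2 signal was 13.10, 12.22 and 13.32 on DsRed-negative arrays 1, 2 and 5 and 12.75, 13.06 and 13.61 on the DsRed-positive arrays, with overlapping groups and a log2 difference of 0.26 ± 0.43 (SE, limma adjusted p = 0.72). Another probe set of Pttg1, of lower mean signal, was itself called higher (log2 difference 1.42, adjusted p = 0.0479 by limma). Cdc20, the activator of the complex, had 14.07, 13.13 and 14.08 against 12.86, 13.67 and 14.64, so that the highest and the lowest values were both in DsRed-positive cells. Its log2 difference was -0.03, with a 95% interval of -1.27 to 1.20.

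The passenger complex moves from centromeres to the midzone and corrects faulty attachments. None of its 3 genes was called. Birc5, the gene of survivin, had log2 signals of 9.24, 8.61 and 10.16 on DsRed-negative arrays 1, 2 and 5 and 9.88, 10.16 and 11.56 on the DsRed-positive arrays. Aurkb, the kinase of the complex, had 9.20, 8.62 and 10.56 against 9.96, 9.39 and 11.89. In both genes the groups overlapped because of DsRed-negative array 5. The log2 differences were 1.20 ± 0.58 (SE, limma adjusted p = 0.205) for Birc5 and 0.96 ± 0.75 (adjusted p = 0.43) for Aurkb. Incenp, the scaffold, differed by -0.03 ± 0.75, with adjusted p = 0.985.

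All 5 centromere and kinetochore genes had estimates above 0 (median log2 difference 0.93), none of them called. Cenpf, a large protein of the outer kinetochore, had log2 signals of 10.87, 8.03 and 10.29 on DsRed-negative arrays 1, 2 and 5 and 11.34, 11.13 and 13.13 on the DsRed-positive arrays. The groups did not overlap, and the difference was 2.14 ± 0.84 (SE, limma adjusted p = 0.126). A second, dimmer probe set of Cenpf was called higher at a log2 difference of 1.53 ± 0.33 (adjusted p = 0.019 by limma). It was at or below the control level on all DsRed-negative arrays and at least 2.25-fold higher on the DsRed-positive ones. Ndc80, which grips the microtubule, had 7.13, 7.27 and 9.63 against 8.73, 8.43 and 10.79, with overlap from DsRed-negative array 5 and a log2 difference of 1.31 ± 0.85 (limma adjusted p = 0.339). Nuf2, its partner, Cenpe, a kinesin of the kinetochore, and Cenpa, the histone of centromeres, had log2 differences of 0.93, 0.65 and 0.34.

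Plk4, the kinase that starts centriole duplication, was the single gene of its role. Its log2 signal was 10.05, 11.24 and 9.11 on DsRed-negative arrays 1, 2 and 5 and 9.68, 10.06 and 10.43 on the DsRed-positive arrays. The DsRed-negative arrays held both the highest and the lowest value. The log2 difference was -0.07 ± 0.56 (SE, limma adjusted p = 0.945).

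The 6 spindle motors and microtubule proteins had a median log2 difference of 0.45, all above 0 and none called. Tpx2, which starts microtubules near chromosomes, had log2 signals of 9.87, 6.07 and 10.52 on DsRed-negative arrays 1, 2 and 5 and 10.36, 10.93 and 11.91 on the DsRed-positive arrays. Nusap1, which bundles spindle microtubules, had 10.64, 8.67 and 11.22 against 11.80, 11.24 and 13.28. In both genes DsRed-negative array 2 was far below the rest, and in Nusap1 the groups almost met, with DsRed-negative array 5 just under DsRed-positive array 2. The log2 differences were 2.25 ± 1.10 (SE, limma adjusted p = 0.209) for Tpx2 and 1.93 ± 0.77 (adjusted p = 0.134) for Nusap1. Dimmer tested probe sets had log2 differences of 1.27, -0.62 and -0.71 for Tpx2 and -0.48 for Nusap1. The motors Kif4, Kif11, Kif2c and Kif22 had log2 differences of 0.07 to 0.62.

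Among 6 genes of the midzone and cytokinesis, Kif20a was called and all 6 had estimates above 0 (median log2 difference 1.04). Ect2, the exchange factor that switches on RhoA at the cleavage furrow, had log2 signals of 8.52, 9.09 and 8.80 on DsRed-negative arrays 1, 2 and 5 and 9.87, 9.56 and 11.36 on the DsRed-positive arrays. The groups did not overlap, and the difference was 1.46 ± 0.52 (SE, limma adjusted p = 0.0959). Kif20b, a kinesin of the late midzone, Prc1, which crosslinks midzone microtubules, Anln, the anillin of the furrow, and Kif23, a motor of centralspindlin, had log2 differences of 1.41, 0.67, 0.57 and 0.41.

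The 39 genes had 89 single-gene probe sets, of which 70 were tested. Of these, 58 had an estimate above 0 and 4 were called higher, against 17.2% of all probe sets called in either direction. The 4 were those of Ube2c and Kif20a and the dimmer ones of Pttg1 and Cenpf. Several tested probe sets stood for 21 of the genes, and in 10 of these genes their estimates had both signs. Foxm1, Cdc20, Bub1b, Nusap1 and Tpx2 were among them. DsRed-positive array 5 was the highest of the DsRed-positive arrays in 61 of the 70 probe sets. The probe sets used for Cdc20, Incenp, Aurkb, Kif2c, Kif22 and Cdc25c are of a kind that may also bind other transcripts. Those used for Bub1b, Bub3, Plk4, Prc1 and Pttg1 are of another kind that may share probes between transcripts. The other tested probe set had a log2 difference of 1.40 in place of -0.03 for Incenp and of 1.88 in place of 0.29 for Kif22.

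Other genes of mitosis were taken from a further list. Of 67 tested genes (74 listed, with 72 on the array as single-gene probe sets), 7 were higher and none lower in DsRed-positive cells, with a median log2 difference of 0.76 and 55 genes above 0. The share called higher, 10.4%, was near the 9.21% of all tested genes. Among those called, Spdl1, Ska3, Cenph, Mis12 and Cenpw had mean log2 signals of 6.46, 6.93, 6.35, 6.33 and 6.91 on the DsRed-negative arrays. These lay below the filter on mean signal, 7.18. Such genes were tested only through their DsRed-positive arrays and could only be called higher. Median centring gave 15 higher, with a median of 1.17, and the values as deposited gave 4. Of all 14237 genes tested, these settings called 2568 and 1233 higher. Spdl1, which brings dynein to kinetochores, was at or below the control level on all DsRed-negative arrays and was at least 2.96-fold higher on the DsRed-positive ones (limma adjusted p = 0.00669). The same held for Ska3, of the complex that holds microtubule ends, at least 2.13-fold higher (adjusted p = 0.0153), and for Cenph, of the inner kinetochore, at least 2.43-fold higher (adjusted p = 0.018). Nek2, a kinase that parts centrosomes, was 6.34-fold higher (adjusted p = 0.0262) by its brightest probe set, but its probe set without a suffix gave a log2 difference of -0.06 (adjusted p = 0.923, limma). Lastly, Knstrn, of the spindle and kinetochore, was 3.59-fold higher (adjusted p = 0.0353 by limma). Without DsRed-positive array 5 the list had 2 genes higher and 1 lower, and without DsRed-positive array 1 it had 3 higher. Of all 14222 genes, the first of these fits called 749 higher and 1143 lower, and the other called 623 higher. Spdl1 was called in every fit that left out 1 array, while Cenph was lost without DsRed-negative array 1 (adjusted p = 0.0546), Ska3 without DsRed-positive array 5 (adjusted p = 0.0511), Nek2 without DsRed-positive array 1 or 5, and Knstrn without any array but DsRed-negative array 5. Without both arrays numbered 1, limma called 2 of the 67 genes higher, beside 485 of all 14222 genes.

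The height of DsRed-positive array 5 was also counted in the other lists. That array exceeded both other DsRed-positive arrays by more than 1 log2 unit for 36 of 67 further mitosis genes (53.7%), 19 of 56 S phase genes (33.9%), 2 of 24 G1 and E2F regulators (8.33%) and none of 18 CDK inhibitors and other brakes. Of the 428 genes with such a gap, 82 were in one of the 5 cell cycle lists (19.2%), which hold 204 of all tested genes (1.43%). These 82 include 25 of the 39 mitosis genes. Array 5 and the gap were picked after those genes were seen, so the share is a description and not a separate test.

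Of 56 S phase genes, 4 were higher and none lower, with a median log2 difference of 0.46 (7.14% higher, against 9.21% of all genes). Median centring gave 12 higher and a median of 1.05, and the values as deposited gave 1 higher, beside 2568 and 1233 of all 14237 genes. None was called without DsRed-positive array 2 or without DsRed-positive array 5, where the median was 0.45 and 0.08, and 2 were called higher without both arrays numbered 1. In the same order, these fits called 698, 749 and 485 of all 14222 genes higher. Tyms, the thymidylate synthase, was at or below the control level on all DsRed-negative arrays and at least 1.74-fold higher on the DsRed-positive ones (limma adjusted p = 0.0266). Its DsRed-negative mean of 6.24 lay below the filter of 7.18, so it too could only be called higher. Gins1, of the replicative helicase, was 4.09-fold higher (adjusted p = 0.0397 by limma). Dbf4, the activator of the kinase Cdc7, had log2 signals of 10.93, 10.63 and 10.98 on DsRed-negative arrays 1, 2 and 5 and 12.15, 12.07 and 11.84 on the DsRed-positive arrays. Array 5 was here the lowest of its group, and the difference was 1.17 ± 0.32 (SE, limma adjusted p = 0.0414). Leaving out any 1 array ended the call of Dbf4, and 5 of the 6 such fits ended those of Tyms and Gins1.

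Genes of the earlier cell cycle had lower medians than the mitosis genes. Of 24 G1 and E2F regulators, none was higher and 2 were lower (median log2 difference -0.18), a share of 8.33% beside the 11.3% of all tested genes called lower. With each array centred on its median, 3 were higher and 1 lower, beside 2568 higher and 1400 lower of all 14237 genes. The list median turned to 0.32. Without both arrays numbered 1, none was called, beside 8.74% of all tested genes, and the list median was 0.11. Ccne1, the gene of cyclin E1, had log2 signals of 13.17, 13.24 and 13.23 on DsRed-negative arrays 1, 2 and 5 and 9.86, 11.30 and 11.77 on the DsRed-positive arrays, and fell by 2.23 on the log2 scale (SE 0.51, limma adjusted p = 0.0237). Its probe set is of a kind that may also bind other transcripts. Ccnd1, the gene of cyclin D1, fell by 2.45 (SE 0.64, adjusted p = 0.0385), with DsRed-positive array 5 the lowest of all at 8.85. The call of Ccne1 ended without DsRed-negative array 1 or 5 or without DsRed-positive array 2, and that of Ccnd1 in every such fit but the one without DsRed-positive array 2.

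Among 18 CDK inhibitors and other brakes, DsRed-positive cells had 2 genes higher and 5 lower (median log2 difference -0.61). The share called in either direction was 38.9%, beside 20.5% of all tested genes. For genes called higher it was 11.1%, beside 9.21%, and 11.3% of all tested genes were called lower. With median centring 3 were called each way, beside 27.9% of all genes in either direction. Without both arrays numbered 1 it was 1 each way, beside 8.74%. Leaving out any 1 of the DsRed-positive arrays gave 1 higher and 3 lower, beside 11.9% to 13.3% of all genes called in either direction. The 3 genes with the smallest p were the stress-induced growth arrest genes Gadd45g, Gadd45b and Gadd45a. Gadd45g had log2 signals of 14.64, 14.34 and 14.24 on DsRed-negative arrays 1, 2 and 5 and 10.59, 10.81 and 9.71 on the DsRed-positive arrays, and fell by 4.04 (SE 0.40, limma adjusted p = 6e-04). Gadd45b fell by 2.36 (SE 0.37, adjusted p = 0.00459) and Gadd45a by 2.22 (SE 0.35, adjusted p = 0.00475), and all 3 stayed called when any 1 array was left out. The 2 higher genes were Wee1, the kinase that keeps Cdk1 inactive, and Cdkn3, a phosphatase of Cdk2. The DsRed-negative arrays also held the larger fibroblast, muscle and leukocyte signals given above, whose part in these differences was not tested.

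**Figure D3:**
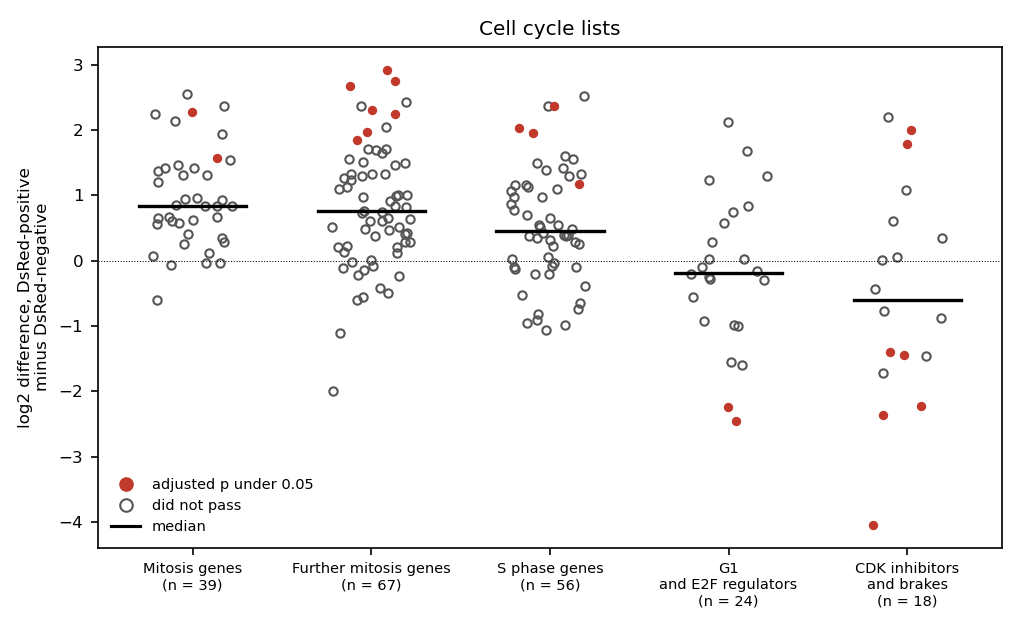
Log2 difference, DsRed-positive minus DsRed-negative, for each tested gene of 5 cell cycle lists (3 arrays in each group). Each circle is a gene, filled red where limma's adjusted p was under 0.05, and the bars are the list medians, from 0.84 for the mitosis genes and 0.76 for the further mitosis genes to -0.61 for the CDK inhibitors and brakes.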

How the data were processed

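Values were probe set intensities on a linear scale, as the authors deposited them for 6 arrays. The tool given in the submitters' processing notes is GCOS; its version, settings and genome build are not given in the sources. Every array had a trimmed mean of 1500.01, so the deposited intensities had been scaled. The labels give 2 rounds of amplification, which can distort low transcripts and the 5′ ends.

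An offset of 39.84 (the 20th percentile) was added, log2 taken, and the arrays quantile normalized, since their medians spanned 0.74. The offset compresses ratios of dim genes. Of 45101 probe sets, 64 controls and those with a mean log2 at or below 7.18 (the 33rd percentile) were left out. Of all probe sets 34945 had 1 gene, 932 several and 9160 none here; each gene took the brightest of its single-gene probe sets. Differences were tested two-sided in R 4.3.3 with limma 3.58.1 (lmFit, eBayes) over 30175 probe sets with Benjamini-Hochberg adjustment and a threshold of 0.05. The control level of an array was the 95th percentile of its 27 unspiked control probe sets, and an at-least fold is taken against it. The script was tested on simulated data.

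Genes given with every array's value were those called and the 2 of largest absolute difference in each role. Of each other list, the 3 called genes (5 for further mitosis) of smallest p are named, Dbf4, Ccne1 and Gadd45g with every array's value. Foxm1, Cdc20 and Bub3 were added in full, and Wee1, Cdkn3, Mis12 and Cenpw named, after their values were seen. The members and lists were chosen with earlier results of these data known. Alternatives were another scaling, offset, filter or probe set choice, array weights, trend and robust estimation, the number as a block, and leaving out arrays; their effect is in the closing section.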

Additional observations from a re-analysis of the deposited data

How the results depend on the processing

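No mitosis gene was called lower under any alternative run, which were other scalings, offsets, filters and probe set choices, array weights, trend and robust estimation, the block, and leaving out arrays. Of 767 gene results under the alternatives, 685 kept their direction and their side of the threshold. The count called higher, 2 in the reported fit, was 9 with each array centred on its median, 6 with an offset at the 50th percentile, 5 with trend and robust estimation, and 5 with the mean over a gene's probe sets. In the same order, these fits called 27.9%, 25.3%, 24.2% and 26.8% of all genes in either direction. They called 2568 of 14237, 1771 of 14206, 1664 of 14222 and 1716 of 12189 genes higher. The mitosis count was 1 on the values as deposited, with an offset of 1, without a filter, with array weights and with probe sets without suffix. It was also 1 without both arrays of number 2, and 0 without both arrays of number 1 or of number 5. The share of all genes called ran from 12.8% to 23% in these fits with 1, and was 8.74% and 10% in those with 0. Leaving out 1 array gave a count of 1 in all 6 fits, always Ube2c, and a median difference of 0.22 to 1.21. Of all genes, these 6 fits called 11.9% to 18.9% in either direction. The other alternatives gave a median of 0.65 to 1.26.

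The labels do not say what the numbers 1, 2 and 5 mark. Deviations of same-numbered arrays correlated at 0.15, 0.04 and 0.05, not all over 0.1, so the numbers were not used as pairs. As hints from the data, every array correlated best with its own number, and the Xist signal was high on number 1 and low on 2 and 5 in both groups. With the number as a replicate block, 4 mitosis genes were called higher, Ube2c, Kif20a, Ttk (adjusted p = 0.0366) and Nusap1 (adjusted p = 0.0375, limma), and the median standard error of the 39 differences was 0.44 in place of 0.67. Over all genes the block gave 1067 higher and 1406 lower calls, against 1310 and 1603.

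No mitosis gene whose sign turned was called in the reported fit; Nek2, of the further list, was called and turned. On the values as deposited the log2 difference was 0.07 for Cdc20, 0.04 for Incenp, -0.16 for Kif4 and -0.08 for Kif2c, and with median centring 0.33 for Plk4, 0.61 for Cdc20 and 0.58 for Incenp. Without both arrays of number 1 it was 0.07 for Plk4, 0.55 for Cdc20 and 0.45 for Incenp, and without number 2 it was 0.48 for Plk4 and -0.03 for Pttg1. Without number 5 it was -0.02 for Plk1, -0.17 for Kif4 and Kif11, -0.98 for Kif2c, -0.19 for Kif22 and -0.15 for Kif23. Array weights gave 0.02 for Plk4. The mean of all probe sets gave 0.11 for Plk4, 0.31 for Cdc20, 0.30 for Incenp, -0.15 for Kif2c, -0.22 for Kif23 and 0.21 for Foxm1, and probe sets without suffix gave 0.31 for Cdc20, 1.40 for Incenp, -0.85 for Kif2c and -0.06 for Nek2. The causes were not tested.

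Over the 6 fits that each left out 1 array, the difference ranged from -0.49 to 0.40 for Cdc20, -0.73 to 0.47 for Incenp, -0.59 to 0.48 for Plk4, 0 to 1.55 for Cdc25b, -0.82 to 0.99 for Kif22, -0.09 to 1.70 for Nuf2, -0.07 to 0.48 for Pttg1, -0.54 to 0.56 for Kif2c, -0.09 to 1.10 for Top2a, -0.02 to 1.46 for Plk1 and -0.20 to 0.33 for Kif4. Among genes called in the other lists, Spdl1 and the 3 Gadd45 genes were called in all 6 of these fits, Dbf4 in none, Knstrn, Tyms, Gins1 and Ccnd1 in 1, Ccne1 in 3, Nek2 in 4, and Ska3 and Cenph in 5.

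The signal over background limits Ttk, Bub1b, Tpx2, Nuf2, Aurka, Cdc25b, Bub1, Plk1 and Ndc80, which were at or below the control level on DsRed-negative array 2. Plk1, Ndc80 and Nuf2 were below it on other arrays too. With 3 arrays in each group, and 1 DsRed-positive array above the others for every mitosis gene, intervals of most genes span 0.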
